A study of Mus musculus with 12 samples.

Results

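Hepatocytes take bile acids and drugs from the blood at their sinusoidal face and pass them into bile at the canalicular face, and 9 transporter genes of these steps were followed in the livers of mice with concanavalin A (Con A) hepatitis. The 9 genes were chosen by name, by a rule that uses no measured value, though with earlier results of these data known, and are 9 of the 11289 genes in the deposited table. They comprise 5 uptake carriers (Slc10a1, Slco1a1, Slco1a4, Slco1b2 and Slco2b1), 3 canalicular exporters (Abcb11, Abcb4 and Abcc2) and 1 basolateral exporter (Abcc3), and all 9 were found in the table. None of them was removed by a filter on low values here, and their lowest value in any mouse was 180.

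Bile flow depends on a cycle in which bile acids return from the gut in portal blood, enter the hepatocyte through a sodium-coupled carrier and a family of organic anion carriers, and leave it through ATP-driven pumps of the canalicular membrane. Basolateral pumps offer a way back to the blood, and in cholestatic and inflamed livers uptake carriers and canalicular pumps are known to fall while some basolateral pumps are kept or raised. Nuclear receptors that sense bile acids and drugs, and liver-enriched transcription factors, are known to control many of these genes.

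Total RNA of whole liver from C57BL/6J mice, male according to the methods and aged 8 to 10 weeks according to the labels, was sequenced as 150-base paired-end reads in 3 groups of 4 mice. Control mice received no Con A, and the sources used here do not state what else they were given. Con A + PBS mice received Con A, a lectin of the jack bean that drives T cells to injure the liver, at 15 mg/kg through the tail vein and PBS intravenously 30 min later, and Con A + hWJ-MSCs mice received the same dose of Con A and, 30 min later, stromal cells of the Wharton's jelly of the human umbilical cord in PBS. Livers were taken at 24 h. The methods give another age range and another number of infused cells than the labels, so no cell number is given. The labels call the cells of the infusion umbilical cord cells and the series text names Wharton's jelly. The groups hold different animals, and a mouse number is only a name. Fewer cells of a type and less RNA per cell cannot be told apart in such bulk tissue.

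The values are whole numbers that had been brought to nearly the same distribution in every mouse, with totals between 17649654 and 17657159 and a median of 352 in each of the 12 mice, so they are not read counts and the depth is unknown. Of 15 hepatocyte markers all 15 were in the table, and none was at 0 in any mouse. Their summed value was 1134130 to 1768146 in Control livers, 784762 to 846591 after Con A + PBS and 847455 to 892755 after Con A + hWJ-MSCs, and 11 of the 15 were called lower after Con A, beside 19.2% of all genes. Albumin (Alb), at the table's largest value of 341028, and Cps1 held the same value in all 12 mice, so a change of these genes could not be seen. Values between genes were not scaled by length by any stated step, so levels are compared between groups and not between genes.

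Slc10a1 and Abcb11 fell strongly after Con A and varied together from mouse to mouse, whereas Abcb4 did not pass the test, and the bases just upstream of these 3 genes are shown. They were picked for these differences, so the letters in them are no support for a link with the change. The windows are 250 bases long, end at the base before the RNA start that RefSeq lists on GRCm38.p6 (the build of mm10), and are written 5′ to 3′ on the gene's strand. They lie at chr12:80968080-80968329 (minus strand), chr2:69342617-69342866 (minus strand) and chr5:8893471-8893720 (plus strand). Capitals mark the hexamer AGGTCA, to which nuclear receptors bind, on either strand (TGACCT where it lies on the other strand).
Slc10a1: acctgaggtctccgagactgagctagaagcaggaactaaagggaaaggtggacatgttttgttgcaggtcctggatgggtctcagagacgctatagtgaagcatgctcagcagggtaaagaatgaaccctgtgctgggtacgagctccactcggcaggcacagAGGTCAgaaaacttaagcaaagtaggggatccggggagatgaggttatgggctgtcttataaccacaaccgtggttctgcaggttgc
Abcb11: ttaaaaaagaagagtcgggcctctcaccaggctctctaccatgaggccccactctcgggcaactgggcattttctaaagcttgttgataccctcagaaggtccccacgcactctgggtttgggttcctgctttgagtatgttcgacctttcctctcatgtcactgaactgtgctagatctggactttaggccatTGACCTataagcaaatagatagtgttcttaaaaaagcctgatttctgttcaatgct
Abcb4: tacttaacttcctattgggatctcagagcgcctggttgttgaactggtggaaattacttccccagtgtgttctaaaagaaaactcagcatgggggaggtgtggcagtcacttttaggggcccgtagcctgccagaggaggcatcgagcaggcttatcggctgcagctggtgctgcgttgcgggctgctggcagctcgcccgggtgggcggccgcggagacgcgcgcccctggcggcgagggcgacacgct
The window of Slc10a1 holds the hexamer once and that of Abcb11 once, and that of Abcb4 does not hold these letters. RefSeq windows were matched for 8 of the 9 genes, all but Abcc3. The hexamer was in the windows of 5 of these 8 genes (Abcb11, Slco1b2, Slco1a1, Slc10a1 and Abcc2), against 14.0% of 32851 windows of the same length. Of the genes called lower after Con A, Abcb11, Slco1a1, Slc10a1 and Abcc2 hold the hexamer and Slco1a4 and Slco2b1 do not. Of those not called, Slco1b2 holds it and Abcb4 does not. Its relation to the calls was not tested. The HNF1 motif GTTAAT was in 1 of the 8 (Slco1b2) and in 6.43% of all windows. Both strands were searched for each motif, and the motifs did not overlap in these windows. These matches describe letters in a window and were not tested as binding sites.

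The transporters were first compared between Con A + PBS and Control livers, which asks how the transport genes stood 24 h after the injury. Of the 9 genes, 6 fell and 0 rose, and 3 did not pass the test (limma on log2(value + 1); a call needed a fold change above 1.5 and, after Benjamini-Hochberg adjustment over all genes, a p below 0.05). Over all genes tested, 38.8% were called, 19.2% lower and 19.5% higher. The median log2 fold change of the 9 genes was -1.69, beside 0.05 over all genes. By site, 4 of 5 uptake carriers and 2 of 3 canalicular exporters fell, and the basolateral exporter Abcc3 did not pass the test. In these 6 genes every Con A + PBS mouse lay below every Control mouse, as was so for 23.4% of all genes.

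Slc10a1 encodes NTCP, the sodium-coupled carrier that brings conjugated bile acids into the hepatocyte. Its gene lies on the minus strand of mm10 at chr12:80953185-80968079 and its listed transcript has 5 exons. Values were 13327, 7660, 9922 and 14006 in the 4 Control mice, 1127, 2885, 1946 and 578 in the Con A + PBS mice, and 4224, 8006, 3608 and 2118 in the Con A + hWJ-MSCs mice. The highest Con A + PBS mouse was below the lowest Control mouse, and the Con A + hWJ-MSCs mice lay between, with 1 of them inside the Control range and 1 inside the Con A + PBS range. The mean was 11229 ± 2975 (SD, n = 4) in Control livers, 1634 ± 1006 after Con A + PBS and 4489 ± 2506 after Con A + hWJ-MSCs. Slc10a1 fell after Con A (log2 fold change -2.98, SE 0.47, limma adjusted p = 2.1e-04) and was at 14.55% of the Control mean.

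Slco1b2, Slco1a4 and Slco1a1 are carriers of the OATP family, which take up organic anions, bile acids and many drugs without sodium. The 3 genes lie within 317 kb of mm10 chromosome 6, at chr6:141629518-141686646 on the plus strand and at chr6:141805440-141856171 and chr6:141907282-141946810 on the minus strand. Their values are given in turn, with those of the genes that fell first.

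Slco1a4 (OATP1A4) stood at 5925, 3922, 2584 and 5256 in Control mice, at 245, 345, 380 and 398 in Con A + PBS mice, and at 715, 770, 376 and 363 in Con A + hWJ-MSCs mice. All 8 mice given Con A lay below the lowest Control mouse. Slco1a4 fell by 3.64 on the log2 scale after Con A (SE 0.30, limma adjusted p = 1.97e-06), to 7.73% of the Control mean, the lowest share among the 9 genes. Of the 50-base stretches of its transcript, 2.73% also occur in other genes, chiefly Slco1a5, which is not in the table. Whether 150-base read pairs from these stretches were placed with certainty was not examined.

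Slco1a1 (OATP1A1) had values of 840, 2830, 3130 and 4466 in Control mice, 354, 342, 289 and 238 in Con A + PBS mice, and 282, 568, 264 and 180 in Con A + hWJ-MSCs mice. Control mouse 1 was far below the other Control mice but above every mouse given Con A. Slco1a1 fell by 2.99 on the log2 scale after Con A (SE 0.45, limma adjusted p = 1.44e-04), to 10.86% of the Control mean. It shares 2.26% of its 50-base stretches with other genes, chiefly with Slco1a4.

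Slco1b2 (OATP1B2), the liver-restricted member of the family in the mouse, had the widest spread within a group of the 9 genes. Its values were 13253, 23652, 20917 and 34419 in Control mice, 6546, 25838, 13961 and 884 in Con A + PBS mice, and 23652, 34419, 34419 and 29712 in Con A + hWJ-MSCs mice. The Con A + PBS mice were spread over 29.2-fold, with mice 2 and 3 inside the Control range and mice 1 and 4 under it. The log2 fold change after Con A was -1.69 with a 95% confidence interval from -3.35 to -0.02, and it did not pass the adjusted test (SE 0.77, limma adjusted p = 0.0783). Without Con A + PBS mouse 2 it was called lower (-2.33, limma adjusted p = 0.0143), and without mouse 4 the log2 fold change was -0.71. Its highest values are steps that recur between mice (34419 occurs in 3 mice), so differences among them are differences in rank.

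Slco2b1 (OATP2B1), a carrier found in many tissues besides liver, lies on the minus strand at mm10 chr7:99657804-99711340. Its values were 2734, 2318, 2421 and 2763 in Control mice, 1720, 1926, 1992 and 792 in Con A + PBS mice, and 1660, 2148, 1754 and 1768 in Con A + hWJ-MSCs mice. Every mouse given Con A lay below every Control mouse, and Con A + PBS mouse 4 lay far under the rest. Slco2b1 fell after Con A by 0.75 on the log2 scale (SE 0.24, limma adjusted p = 0.0176), the smallest decrease among the 6 called genes. Without Con A + PBS mouse 4 the decrease was 0.44, under the fold threshold, and the call was lost.

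**Figure D1:**
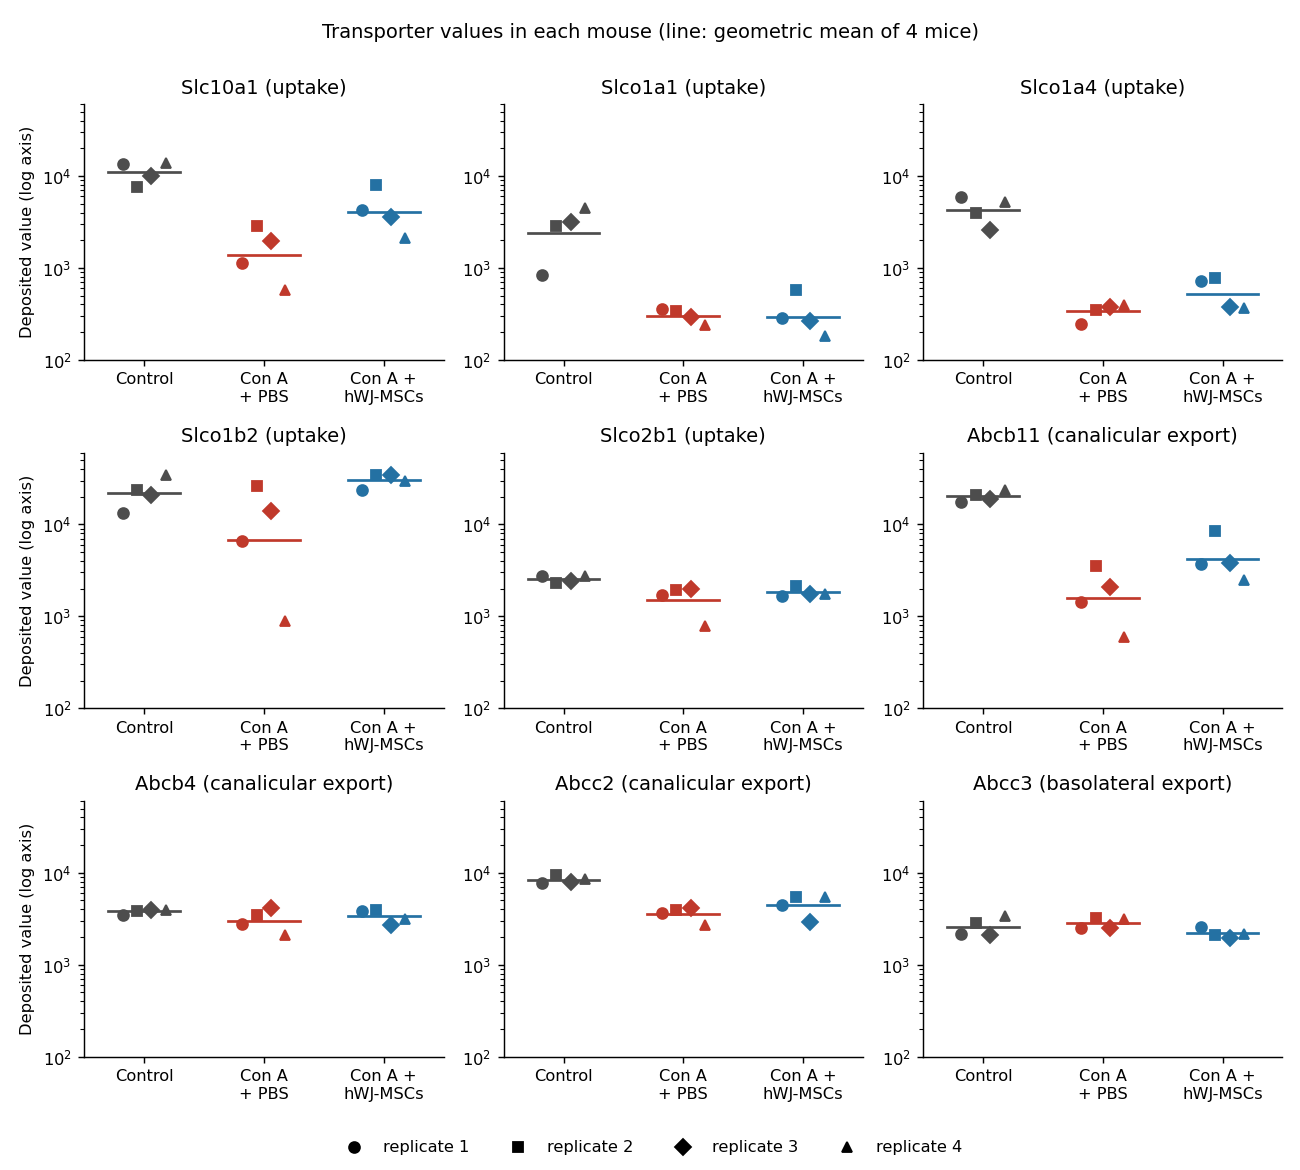
Deposited value of each transporter gene (log axis, the same range in each panel) in the 4 mice of each group, with the symbol giving the mouse number and the line the geometric mean. Slc10a1, Slco1a1, Slco1a4, Slco2b1, Abcb11 and Abcc2 have every Con A + PBS mouse below every Control mouse, while Slco1b2, Abcb4 and Abcc3 overlap.

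Among the canalicular exporters, Abcb11 encodes BSEP, the pump that moves bile acids into bile, and lies on the minus strand at mm10 chr2:69238282-69342614 with 28 exons. Its values were 17671, 20910, 18944 and 23644 in Control mice, 1420, 3493, 2084 and 600 in Con A + PBS mice, and 3700, 8542, 3808 and 2474 in Con A + hWJ-MSCs mice. The Control mice lay close together, with a mean of 20292 ± 2602 (SD, n = 4), and no mouse given Con A reached their range. Abcb11 fell by 3.67 on the log2 scale after Con A (SE 0.46, limma adjusted p = 4.1e-05), to 9.36% of the Control mean.

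Abcc2 encodes MRP2, the canalicular pump for bilirubin glucuronides and other conjugates, and lies on the plus strand at mm10 chr19:43782192-43840740. Its values were 7660, 9480, 8006 and 8577 in Control mice, 3608, 3936, 4129 and 2678 in Con A + PBS mice, and 4483, 5429, 2921 and 5429 in Con A + hWJ-MSCs mice. All 8 mice given Con A lay below the Control mice. Abcc2 fell by 1.25 on the log2 scale after Con A (SE 0.20, limma adjusted p = 2.22e-04), to 42.56% of the Control mean.

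Abcb4 encodes MDR2, the floppase that supplies phosphatidylcholine to bile and so shields the ducts from bile acids, and lies on the plus strand at mm10 chr5:8893721-8959225. Its values were 3491, 3804, 3976 and 3918 in Control mice, 2760, 3491, 4108 and 2104 in Con A + PBS mice, and 3862, 3918, 2696 and 3126 in Con A + hWJ-MSCs mice. The groups overlapped, with 2 Con A + PBS mice below the Control range, 1 at its lowest value and 1 above it. The log2 fold change after Con A was -0.33 (SE 0.19, limma adjusted p = 0.159), with a 95% confidence interval from -0.74 to 0.08. Of its 50-base stretches, 3.42% also occur in other genes, chiefly Abcb1a.

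Abcc3 encodes MRP3, a basolateral pump that returns conjugates and bile acids to the blood, and lies on the minus strand at mm10 chr11:94343298-94392976 with 31 exons. Its values were 2168, 2870, 2128 and 3406 in Control mice, 2502, 3232, 2530 and 3168 in Con A + PBS mice, and 2556, 2128, 1950 and 2148 in Con A + hWJ-MSCs mice. The Con A + PBS mice all lay inside the Control range. The log2 fold change after Con A was 0.13 (SE 0.16, limma adjusted p = 0.515), with a 95% confidence interval from -0.22 to 0.48. The interval includes no change and leaves out a 1.5-fold change in either direction.

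**Figure D2:**
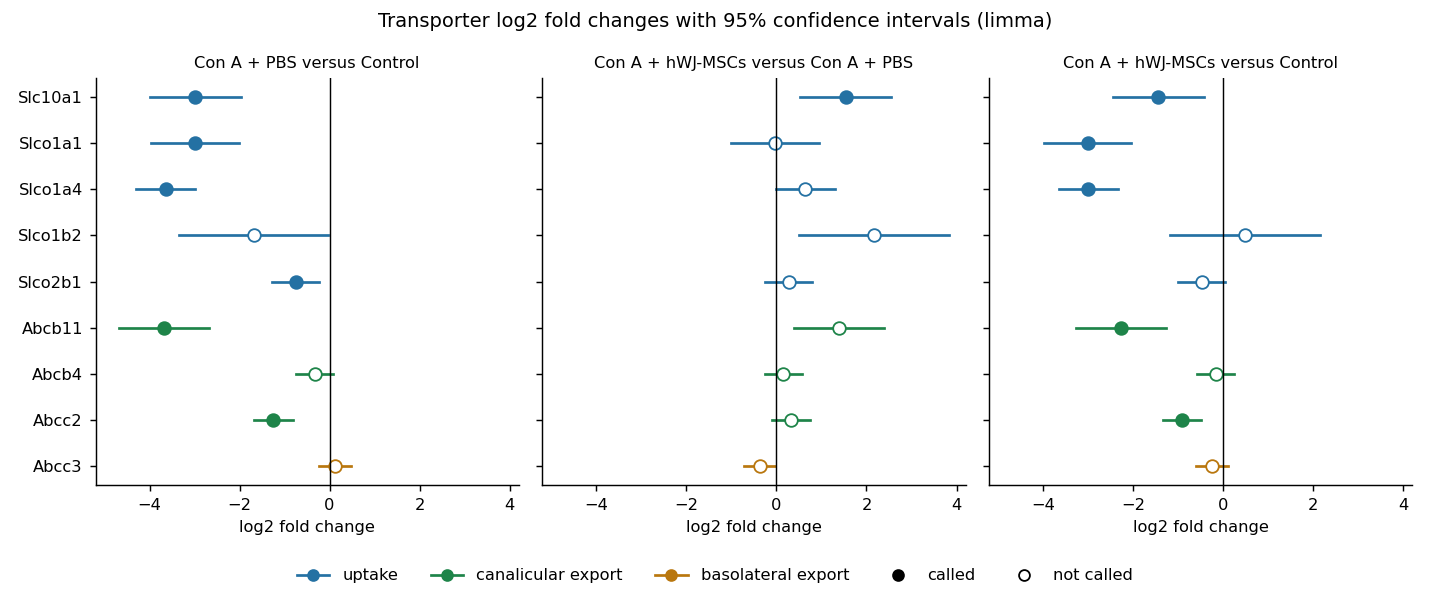
log2 fold change of each transporter gene (point) with its 95% confidence interval (line) from limma in the 3 comparisons, coloured by class, with filled points for called genes. After Con A 6 of 9 genes were called lower, against Con A + PBS 1 gene (Slc10a1) was called higher with hWJ-MSCs, and 5 genes were called lower with hWJ-MSCs than in Control livers.

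These changes are relative to the other genes of the liver. When each mouse was instead scaled to the mean log2 value of its 15 hepatocyte markers, which shifted the median of all genes by 1.06 in this comparison, 4.97% of all genes were called lower and 75.7% higher. Slc10a1, Slco1a1, Slco1a4 and Abcb11 were still called lower under this scaling. Abcc2 lost its call (-0.18, limma adjusted p = 0.431), Slco2b1 stood at 0.31 without a call, and Abcb4 (0.74) and Abcc3 (1.19) were called higher.

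Whether uptake and export moved by different amounts was examined next with the ratio of 2 transporters within each mouse, from which any factor common to a mouse cancels. For 6 pairs, the log2 ratio was compared between groups by an exact permutation test (two-sided), for which 0.0286 is the smallest p with 4 mice in each group, and p-values were adjusted over the 12 tests of both comparisons. Of the 12 tests, 6 reached the smallest p, which gave an adjusted p of 0.0571. With 6 tests at that floor no adjusted p could fall below 0.05, even where the groups lay fully apart. That no pair passed an adjusted threshold of 0.05 is therefore no sign that the ratios stayed the same.

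The log2 ratio of Slc10a1 to Abcc3, uptake against basolateral export of bile acids, was 1.42 to 2.62 in Control mice and -2.45 to -0.16 in Con A + PBS mice, a change of -3.11 (exact permutation p = 0.0286). Canalicular export against basolateral export, as Abcc2 to Abcc3, changed by -1.38 (exact permutation p = 0.0286), from 1.33 to 1.91 in Control mice to -0.24 to 0.71 in Con A + PBS mice. Within the canalicular class, Abcb11 to Abcb4 changed by -3.35 (exact permutation p = 0.0286), the largest change among the 6 pairs, between the bile acid pump and the phospholipid floppase of the same membrane. Slc10a1 to Abcb11 changed by 0.70 (exact permutation p = 0.0286), with the larger difference between groups in Abcb11. For Slco1a1 to Slco1a4 the change was 0.66 (exact permutation p = 0.543), and -0.0111 without Control mouse 1. For Slco1b2 to Slco2b1 it was -0.93 (exact permutation p = 0.343), between -0.27 without Con A + PBS mouse 4 and -1.46 without Con A + PBS mouse 2.

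The class means are given as a description. From Control to Con A + PBS livers they differ by more in uptake than in canalicular export, whereas in the pair of Slc10a1 and Abcb11 the canalicular gene had the larger difference. The mean log2 value of the 5 uptake carriers was 12.48 ± 0.32 (SD, n = 4) in Control livers, 10.07 ± 0.77 after Con A + PBS and 10.99 ± 0.43 after Con A + hWJ-MSCs. For the 3 canalicular exporters it was 13.08 ± 0.11, 11.33 ± 0.57 and 11.95 ± 0.38, and for Abcc3 alone 11.34 ± 0.33, 11.47 ± 0.20 and 11.09 ± 0.16. The difference of uptake minus basolateral export within a mouse ran from 0.92 to 1.31 in Control mice, from -2.60 to -0.82 after Con A + PBS and from -0.53 to 0.51 after Con A + hWJ-MSCs. The difference of uptake minus canalicular export ran from -0.75 to -0.23 in Control mice, from -1.52 to -1.04 after Con A + PBS and from -1.22 to -0.75 after Con A + hWJ-MSCs. The first of these differences separated all 3 groups without overlap, and the second separated the Control mice from the Con A + PBS mice. The size of a difference between classes depends on the genes in them, and Abcc3 stands alone in its class.

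**Figure D3:**
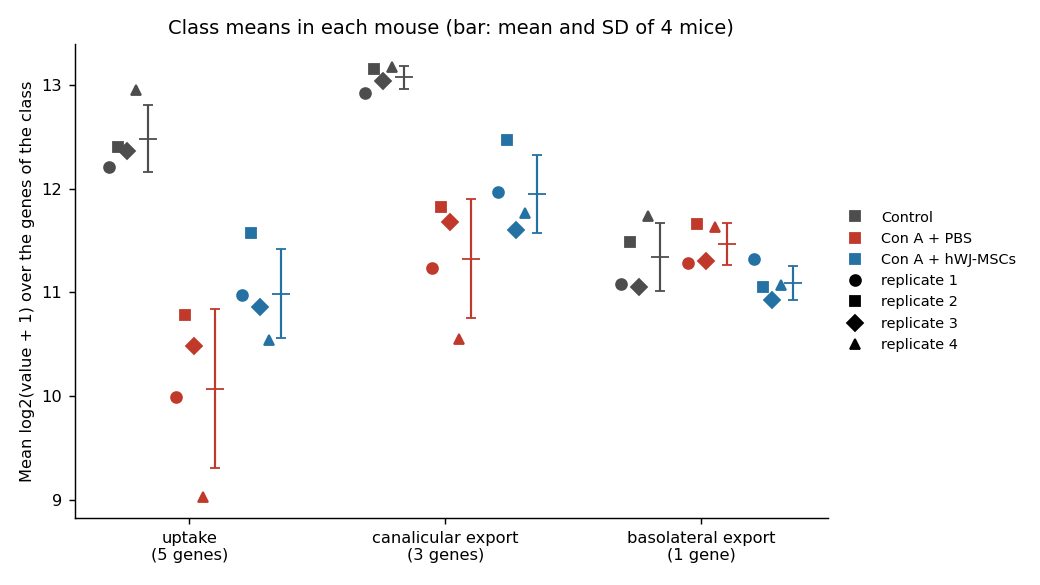
Mean log2(value + 1) over the genes of each transporter class in each mouse, with the mean and SD of the 4 mice of a group beside the points. Uptake stood at 12.48 in Control and 10.07 in Con A + PBS livers, canalicular export at 13.08 and 11.33, and basolateral export at 11.34 and 11.47.

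The comparison of the 2 groups given Con A asks whether infusion of the cells altered these genes in the injured liver. Slc10a1 rose and no other of the 9 genes passed the test, while over all genes 8.58% were called, 4.2% higher and 4.38% lower. The median log2 fold change of the 9 genes was 0.32. In 0 of the 9 genes were the groups free of overlap in either direction, which was so for 11.9% of all genes with the Con A + hWJ-MSCs mice higher and for 11.6% with them lower.

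Slc10a1 was higher with hWJ-MSCs by 1.53 on the log2 scale (SE 0.47, limma adjusted p = 0.0495), at 39.98% of the Control mean against 14.55% without them. The call lay at the threshold and was lost in 10 of the 12 fits that left out 1 mouse, Control mice included, with log2 fold changes between 1.12 (limma adjusted p = 0.114, without Con A + PBS mouse 4) and 1.89. It was also lost without a trend in the variance (limma adjusted p = 0.059) and in a fit of only the 8 mice compared (limma adjusted p = 0.086).

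Abcb11 and Slco1b2 had differences of like size without a call. For Abcb11 the log2 fold change was 1.40 (SE 0.46, limma adjusted p = 0.0606) and for Slco1b2 it was 2.16 (SE 0.77, limma adjusted p = 0.073). Without Con A + PBS mouse 2 both were called higher, at 1.78 (limma adjusted p = 0.0199) and 2.80 (limma adjusted p = 0.0226), and Abcb11 was also called without Con A + hWJ-MSCs mouse 4 (1.65, limma adjusted p = 0.0437). Without Con A + PBS mouse 4 the differences were smaller and not called, at 0.93 for Abcb11 (limma adjusted p = 0.133) and 1.18 for Slco1b2 (limma adjusted p = 0.0979), and without Con A + hWJ-MSCs mouse 2 that of Abcb11 was 1.05 (limma adjusted p = 0.166). The Con A + hWJ-MSCs mice spanned 23652 to 34419 for Slco1b2, a 1.46-fold range, where the Con A + PBS mice spanned 884 to 25838.

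The remaining differences were smaller. The log2 fold change was 0.64 for Slco1a4 (95% confidence interval -0.02 to 1.29), 0.32 for Abcc2 (-0.11 to 0.75), 0.27 for Slco2b1 (-0.25 to 0.79) and 0.15 for Abcb4 (-0.26 to 0.56). Slco1a1 stood at -0.03 (95% confidence interval -1.003 to 0.94), with means of 305.75 and 323.5 in the groups given Con A, and the interval leaves room for a difference of nearly 2-fold either way. Abcc3 stood at -0.38 (95% confidence interval -0.73 to -0.02, limma adjusted p = 0.123), and under scaling to hepatocyte markers it was called lower (-0.67, limma adjusted p = 0.0248). That scaling shifted the median of all genes by -0.29, with 16.4% of genes called lower and 1.67% higher.

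None of the 6 within-mouse ratios passed the adjusted threshold in this comparison, which, as above, they could not do. The log2 ratio of Slc10a1 to Abcc3 differed by 1.91 and that of Slco1b2 to Slco2b1 by 1.89, each at the smallest exact permutation p of 0.0286 (adjusted 0.0571), and the latter was 1.22 without Con A + PBS mouse 4. For Slc10a1 to Abcb11 the change was 0.14 (exact permutation p = 0.229), for Abcb11 to Abcb4 it was 1.24 (exact permutation p = 0.0857), for Abcc2 to Abcc3 it was 0.70 (exact permutation p = 0.0571), and for Slco1a1 to Slco1a4 it was -0.67 (exact permutation p = 0.114).

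Set against Control, 5 of the 9 genes were lower in Con A + hWJ-MSCs livers, where 26.7% of all genes were called, 13.1% lower and 13.6% higher. This comparison shares its Control mice with the first and its Con A + hWJ-MSCs mice with the second. Slco1a1 (log2 fold change -3.02, limma adjusted p = 2.65e-04) and Slco1a4 (-3.01, limma adjusted p = 1.7e-05) stood furthest below Control, at 11.49% and 12.57% of the Control mean. Abcb11 was lower by 2.28 on the log2 scale (limma adjusted p = 0.00212), at 22.82%. Slc10a1 (-1.44, limma adjusted p = 0.0268) and Abcc2 (-0.92, limma adjusted p = 0.003) were also called lower, and the call of Slc10a1 was lost in 5 of the 12 fits that left out 1 mouse. Under scaling to hepatocyte markers, which shifted the median of all genes by 0.77 and left 3.91% of genes called lower and 66.1% higher, Slc10a1 (-0.68) and Abcc2 (-0.15) lost their calls and Abcb4 was called higher (0.59, limma adjusted p = 0.0115).

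The other 4 genes did not pass against Control. Slco1b2 was at 132.5% of the Control mean (log2 fold change 0.47, 95% confidence interval -1.19 to 2.13), Slco2b1 at 71.61% (-0.48, -1.005 to 0.04), Abcb4 at 89.55% (-0.17, -0.59 to 0.24) and Abcc3 at 83.07% (-0.25, -0.60 to 0.11). Groups without overlap, with the Con A + hWJ-MSCs mice lower, were found for Slco1a1, Slco1a4, Slco2b1, Abcb11 and Abcc2, beside 17.3% of all genes.

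The order of the mice within a group was alike in several transporters. Con A + PBS mouse 4 had the lowest value of its group in 7 of the 9 genes, all but Slco1a4, where it was highest, and Abcc3. Con A + hWJ-MSCs mouse 2 had the highest value of its group in 8 of the 9, all but Abcc3, tied with mouse 3 in Slco1b2 and with mouse 4 in Abcc2. After the group means were taken out, the log2 values of Slc10a1 and Abcb11 correlated over the 12 mice with r = 0.933, Slco1b2 and Slco2b1 with r = 0.89, and Slco1b2 and Abcb11 with r = 0.833. Other pairs had coefficients near 0, such as Abcc3 with Slc10a1 (0.02) and with Abcb11 (0.05), Slco1a1 with Slco1a4 (4.35e-05) and Slco1a4 with Slco2b1 (0.03), while that of Slco1a4 with Slco1b2 was -0.12 and that of Abcc3 with Slco1a4 was 0.427. The 12 points share their scaling to 1 distribution, and these coefficients are given as a description.

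Other genes with a pattern like that of a transporter were ranked by Pearson's r of log2 values over the 12 mice, so that r reflects the group differences as well as single mice. The 3 nearest to Slc10a1 were Cyp8b1, the sterol 12-hydroxylase that sets the cholic acid share of bile acids (r = 0.988), Tymp, thymidine phosphorylase (0.986), and Il1rap, the accessory chain of the interleukin-1 receptor (0.986). The 3 nearest to Abcb11 were Dpp4, a peptidase of the canalicular membrane (0.993), Camk1d, a calcium-dependent kinase (0.991), and Gpld1, a secreted phospholipase of hepatocytes (0.991). For Abcc3 the nearest were Golga2, a Golgi matrix protein (0.873), Cdk13, a kinase of transcription (0.862), and Cish, a cytokine-induced inhibitor of signaling (0.86). All these genes were picked as the highest in the whole table, and how high r would go by chance was not tested.

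Further transporters of the same membranes were counted in the same fits. Of 12 other uptake carriers in the table, out of 15 listed, 8 fell and 2 rose after Con A, with a median log2 fold change of -1.63, beside 19.2% of all genes called lower and 19.5% higher. The largest decreases were in Slc22a7 (OAT2), from a mean of 978.25 to 10.25 (log2 fold change -6.67, limma adjusted p = 3.2e-05), Slc22a27 (-3.81), Slc22a30 (-3.60), these both of the organic anion carrier family, and Slc2a2 (-3.36), the glucose carrier GLUT2. With hWJ-MSCs 1 of the 12 rose and 2 fell against Con A + PBS, beside 4.2% of all genes higher and 4.38% lower, and the one that rose was Slc2a2 (log2 fold change 1.55, limma adjusted p = 0.0226).

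Of 8 other canalicular genes in the table, out of 9 listed, 5 fell and 1 rose after Con A (19.2% and 19.5% of all genes), with a median of -0.72. Slc47a1 (MATE1), which exports organic cations, fell by 2.95 on the log2 scale, and Abcg8 and Abcg5, the paired sterol exporter, fell by 1.06 and 1.05. Tmem30a, a subunit of phospholipid flippases, rose (0.83, limma adjusted p = 0.00295). With hWJ-MSCs Slc47a1 rose against Con A + PBS (1.498, limma adjusted p = 0.0369) and none of the other 7 was called, beside 4.2% of all genes higher and 4.38% lower.

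Of 5 genes in the table from a list of 8 written for basolateral export, 2 fell and 2 rose after Con A (19.2% and 19.5% of all genes), and both that rose were lower again with hWJ-MSCs (4.38% of all genes). Abca1, which loads cholesterol onto apolipoprotein A-I, rose by 1.77 after Con A and was lower by 1.48 with hWJ-MSCs (limma adjusted p = 0.0247). Abcc1 (MRP1), a pump of low level in healthy hepatocytes, rose by 1.04 and was lower by 0.67 with hWJ-MSCs (limma adjusted p = 0.0484). Abcc9 (-2.13), which is known as a potassium channel subunit of vessels and stroma and not as an exporter, and Abcc6 (-1.66), a pump needed for release of ATP from hepatocytes, fell after Con A. Abcc4, Slc51a and Slc51b, known basolateral exporters of bile acids, are not in the table and were not analysed here.

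Transcription factors known to act on these genes were counted next. All 15 listed transcription factors were in the table, and after Con A 5 fell and 0 rose, with a median log2 fold change of -0.17, beside 19.2% of all genes called lower and 19.5% higher. Those with the largest decrease were Nr0b2 (SHP), a repressor that FXR induces (-2.59, limma adjusted p = 0.00593), Nr1i3 (CAR), a drug-sensing receptor (-1.41, limma adjusted p = 0.0017), Cebpa, a liver-enriched factor (-0.90, limma adjusted p = 0.00978), and Nr1h4 (FXR), the bile acid receptor (-0.80, limma adjusted p = 0.0486). With hWJ-MSCs Nr1i3 rose against Con A + PBS (1.35, limma adjusted p = 0.0252), to a mean of 3727 beside 3853 in Control livers, and none of the other 14 was called, a share close to the 8.58% of all genes called.

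Of 12 scaffold and trafficking genes of the canalicular membrane, all in the table, 2 fell and 3 rose after Con A, with a median of -0.01, shares near the 19.2% and 19.5% of all genes called lower and higher. Slc9a3r2 (NHERF2), a scaffold protein, fell by 1.48 on the log2 scale and Pdzk1, which holds transporters at the membrane, by 0.65 (limma adjusted p = 0.0434), while Ezr and Msn, ezrin and moesin, which link membranes to actin, rose by 1.44 and 0.99. With hWJ-MSCs 1 of the 12 fell and 0 rose against Con A + PBS (4.38% and 4.2% of all genes).

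Bile acid synthesis, the source of what Abcb11 exports, was lower after Con A in 8 of 10 genes and higher in 0 (19.2% and 19.5% of all genes), with a median of -1.62. Cyp8b1 (-5.98), Cyp7a1, the rate-limiting enzyme (-5.69), Akr1d1, the reductase of the steroid ring (-5.22), and Cyp2c70, which makes muricholic acids in the mouse (-2.38), had the largest decreases. With hWJ-MSCs 3 of the 10 rose against Con A + PBS (4.2% of all genes), among them Akr1d1 (2.38, limma adjusted p = 0.0203) and Cyp2c70 (0.71, limma adjusted p = 0.045), and 0 fell.

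**Figure D4:**
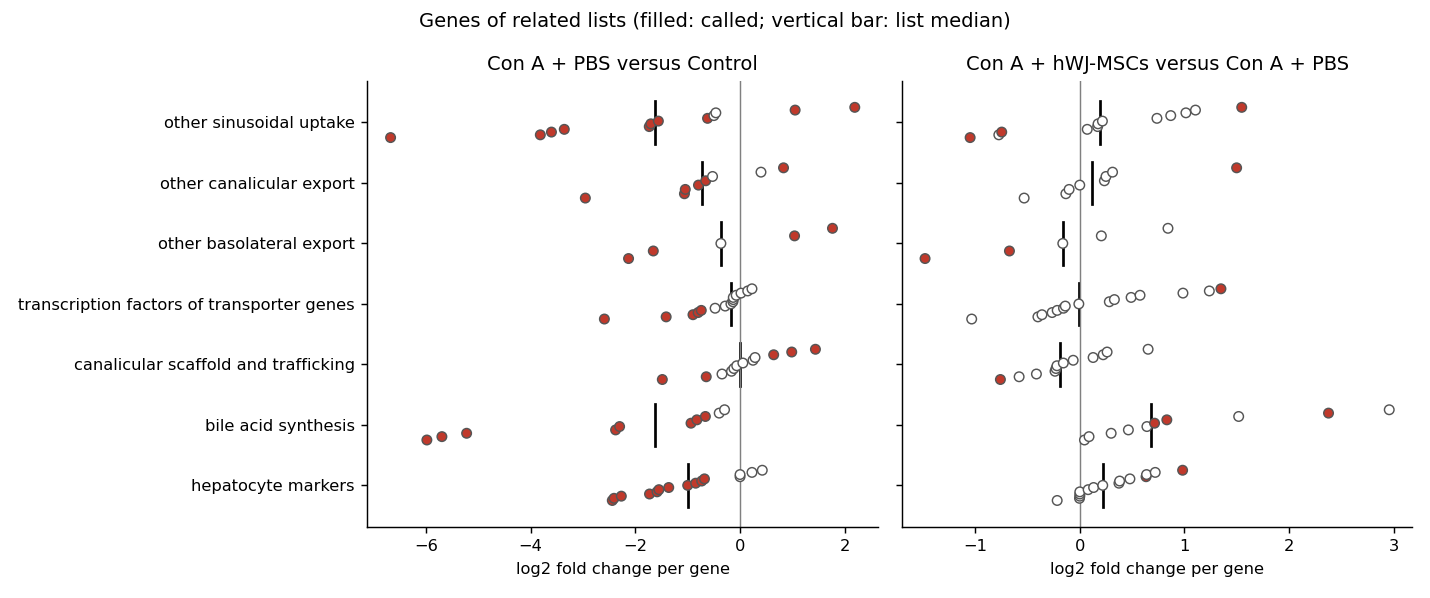
log2 fold change of each gene (point, filled where called) in the lists of further transporters, their regulators and scaffolds, bile acid synthesis and hepatocyte markers, with a bar at the list median, for Con A + PBS versus Control (left) and for hWJ-MSCs versus PBS after Con A (right). The medians on the left were -1.63 for other uptake carriers, -1.62 for bile acid synthesis and -0.17 for transcription factors.

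Markers of other cell types differed between the same groups. Summed values of 9 neutrophil and monocyte markers were 285 to 445 in Control livers, 1572 to 2517 after Con A + PBS and 1487 to 2661 after Con A + hWJ-MSCs. The table holds only genes that reach 64 in at least 2 mice, and 6 of the 9 (S100a8, S100a9, Cxcr2, Retnlg, Ly6c2 and Mmp8) stayed below 64 in every Control mouse, so they are in it through the groups given Con A and had to be higher there. In Control mice 2 of the 9, Retnlg and Mmp8, were at 0 in at least 1 mouse. Summed values in the same order of groups were 5295 to 8240, 753 to 1509 and 608 to 2012 for 9 Kupffer cell markers, and 3614 to 5249, 1537 to 2223 and 1989 to 2662 for 10 sinusoidal endothelial markers. Of these, 2 of the 9 (Timd4 and Cd163) and 2 of the 10 (Clec4g and Bmp2) stayed below 64 in all mice given Con A and so are in the table through the Control mice.

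Bile duct and T cell markers could be read only in part. Of 10 cholangiocyte markers 6 were in the table and 1 (Sox9) rose (19.5% of all genes), with sums of 3228 to 5203, 3189 to 13878 and 3081 to 7224, and Krt19 and Krt7 were among those not in the table. Of 11 T cell markers 2 were in the table, with sums of 15 to 37, 114 to 236 and 136 to 162, and both (Cd8a and Lck) stayed below 64 in every Control mouse and are in the table only through the groups given Con A. The part of these cell types, and of the lower hepatocyte markers, in the transporter values was not tested. Within the 8 mice given Con A, 0 of the 9 neutrophil and monocyte markers and 0 of the 9 Kupffer cell markers were called between the groups, beside 4.2% of all genes higher and 4.38% lower. Of the 10 sinusoidal endothelial markers Stab2 was higher (0.59) and Lyve1 lower (-0.90) with hWJ-MSCs. Against Control, 8 of these 10 were called lower after Con A + PBS, Stab2 among them (-0.79), whereas Lyve1 was called higher (1.29). The mean of Lyve1 was 91.5 in Control livers, 219.5 after Con A + PBS and 117.5 with the cells. Among 15 hepatocyte markers, 2 (Fah and Asgr2) rose with hWJ-MSCs.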

How the data were processed

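Liver RNA of 12 mice was sequenced, and each mouse was placed in its group from the sample labels. The submitters' processing notes name mm10, Bowtie2 2.2.1 and RSEM 1.2.18 without saying what each was used for, and the step that scaled the values is not given in the sources used here. The authors deposited 1 score per gene and mouse, a whole number already scaled between mice and not a read count: 82.1% of ranks hold the same value in all 12 mice, 10 genes share the largest value in each mouse, and each gene reaches 64 in at least 2 mice. Depth and counting error are therefore unknown, changes of the highest genes are limited, and count tests were not run.

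Scores were taken as log2(value + 1), which understates changes of low genes, and fitted for all 11289 genes with limma 3.58.1 in R 4.3.3 (lmFit, eBayes with a trend, all 12 mice, no covariates). P-values were adjusted by Benjamini-Hochberg over all genes, and a call needed a fold change above 1.5 with an adjusted p below 0.05. Ratios of transporters, promoter matches and plots were made in Python 3.11.15 with numpy 2.4.6, pandas 2.3.3, scipy 1.17.1 and matplotlib 3.10.9. Fits and exact tests were tested on simulated data. On how independent the mice were, the labels say no more than that they were separate animals, so p-values measure the spread between these 12 samples.

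The transporters, the related gene lists, the pairs and the tests were chosen with earlier results of these data known. From each related list up to 4 genes are named, those with the largest change after Con A among the called, and for 1 transporter of each class the 3 genes with the highest correlation. Further genes named are some of the marker genes that were called, at 0 or of the same value in all mice. Genes that share stretches with a transporter, and genes not in the table, are named as well. Gene positions are those of the transcript in the deposited table, with exons from GENCODE M21. Alternatives were a pseudocount of 10, a mean value of at least 100, median centring, quantile normalization, scaling to hepatocyte markers, no variance trend, only the 8 mice compared, a replicate block, a fold change above 2, unadjusted p-values and each mouse left out in turn.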

Additional observations from a re-analysis of the deposited data

Results flagged for a closer look

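The value of Slco2b1 in Con A + PBS mouse 4 was 792, where the other 3 mice of the group lay between 1720 and 1992. On the scale of log2(value + 1), its gap to the nearest mouse was 0.841 of the group's range, above Dixon's critical value at the 95% level for 4 samples. The ratio was not taken on the values without the log, so the flag holds for the log scale only. This group was the only 1 of 27 groups of 4 values tested (9 genes in 3 groups) that passed, and chance flags about 1 in 20 such groups. The same mouse had the lowest value of its group in 7 of the 9 transporters.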

How the results depend on the processing

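As a number only, the transporters called stayed within 1.5 times its main value of 6 for Con A + PBS versus Control (5 to 7 when 1 mouse was left out) and of 5 for Con A + hWJ-MSCs versus Control (4 to 5). Under scaling to hepatocyte markers the genes and directions changed while the number after Con A did not, with 4 lower and 2 higher in place of 6 lower. Between the 2 groups given Con A the main count of 1 became 0 without a variance trend and with only the 8 mice compared, 2 under scaling to hepatocyte markers, 3 at unadjusted p-values, and 0 to 3 when 1 mouse was left out. Replicate numbers belong to different animals. Same-numbered mice deviated from their group means with r between -0.118 and 0.375, not above 0.1 in every pair, so the numbers were not taken to pair the mice. With a replicate block that count was 2, Slc10a1 and Abcb11 (limma adjusted p = 0.0275).

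Scaling to hepatocyte markers turned the sign of 7 log2 fold changes: Slco2b1 to 0.31 and Abcb4 to 0.74 after Con A, Slco2b1 to -0.0244 and Abcb4 to -0.14 with hWJ-MSCs against Con A + PBS, and Slco2b1 to 0.28, Abcb4 to 0.59 and Abcc3 to 0.52 against Control. Its construction moves all genes by the marker shift, and 2 of the 15 markers held 1 value in all mice. Between the 2 groups given Con A, leaving out 1 mouse gave -0.35 to 0.21 for Slco1a1, -0.0407 to 0.402 for Slco2b1 and -0.0203 to 0.301 for Abcb4, the lowest of the last 2 without Con A + PBS mouse 4. The cause of the other changes was not tested. Of 702 recomputed values of single genes and pairs, 13 changed sign, of which 2 also gained a call (Abcb4) and 1 lost it (Slco2b1), 23 others lost a call and 10 others gained one. Of the other 656, 123 could not have gained or lost a call (median centring left every value as it was, and pair ratios with 1 mouse left out cannot pass), and 1 changed sign without a call on either side, the ratio of Slco1a1 to Slco1a4 after Con A without Control mouse 1 (-0.0111). In the pair tests a count without 1 mouse was not possible, since 3 mice against 4 cannot give a p below 0.0571. Depth is unknown, so no limit from counting can be given.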
